A study of Mus musculus with 12 samples.

Results

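TCRBV26-01 and TCRBV29-01 are variable (V) gene segments of the mouse T-cell receptor (TCR) β chain, and their use was followed through 12 TCRβ repertoires of CD8+ T cells. Members were all rearrangements whose V gene was annotated as one of the 2 segments. They numbered 8088 for TCRBV26-01 and 15482 for TCRBV29-01, of 288925 rearrangements in all 12 libraries. Of these, 5419 and 12569 were productive, that is in frame and without a stop codon, 2602 and 2805 were out of frame, and 67 and 108 carried a stop codon. The cells came from young adult female C57BL/6 mice that bore tumors of MC38, a colon adenocarcinoma line. All mice received anti-CTLA-4 Ab and anti-PD-L1 Ab, so that no untreated group was compared. Each experiment used several mice, so a library was taken as a pool of mice, and the spread between replicates is that between experiments. The 3 experiments, here called A, B and C, each gave 1 library of each of 4 groups. From the spleen, CD8 T cells were sorted by flow cytometry as CD27loCX3CR1lo, as CD27hiCX3CR1lo or as CX3CR1hi. The fourth group was CD8 tumor-infiltrating lymphocytes (TILs), which were isolated from the tumor by positive selection on CD8a. CX3CR1 is a chemokine receptor of differentiated effector T cells, and CD27 is a costimulatory receptor of less differentiated T cells. The files hold no expression values, so the cell identities could not be checked against markers.

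A TCRβ chain gene is made by joining a V, a D and a J segment, with bases trimmed and added at the joints. The joint forms the complementarity-determining region 3 (CDR3), the part of the chain that mostly contacts the peptide, whereas the V segment encodes the loops that mostly contact the MHC molecule. An out-of-frame rearrangement makes no protein, so its V gene reflects how often the segment was joined, not selection of the receptor. TCRBV26-01 is Trbv26, formerly Vβ3, and TCRBV29-01 is Trbv29, formerly Vβ7. In RefSeq (GRCm38.p6, the mm10 build of the submitters' processing notes) Trbv26 lies at chr6:41227525-41227913 and Trbv29 at chr6:41271403-41271881. RefSeq lists Trbv26 as a V segment and Trbv29 as a V segment pseudogene, although 12569 of its rearrangements here were productive. The assay read genomic DNA, and the template count of a rearrangement estimates how many genomes, and so roughly how many cells, held it. Productive templates per library ranged from 5893 (TILs of experiment A) to 113660 (CX3CR1hi of experiment C), and unique productive rearrangements from 1359 to 54639. Replicate libraries had 0.515% to 2.90% of their rearrangements in common (relative to the less diverse library), so none was deposited as a duplicate.

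The 3′ ends of both segments are shown because they set the first residues of the CDR3. They were read from rearrangements with no trimmed V base, with the bases from the codon of the conserved cysteine onward in capitals.
TCRBV26-01: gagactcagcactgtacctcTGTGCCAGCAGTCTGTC
TCRBV29-01: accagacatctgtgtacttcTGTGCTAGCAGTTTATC
The TCRBV26-01 end was identical in 627 of 642 such rearrangements and the TCRBV29-01 end in 1032 of 1047. Both ends encode Cys-Ala-Ser-Ser. Of the unique productive rearrangements, 89.7% of TCRBV26-01 and 83.4% of TCRBV29-01 began with these 4 residues, and in 6.55% and 6.87% the fourth residue was arginine.

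First, each segment's share of the unique productive rearrangements was compared between groups, which asks whether its receptors were recruited more often into one subset. TCRBV29-01 was the more used segment, with a mean of 5.99% ± 0.380 (SD, n = 12 libraries) against 2.70% ± 0.478 for TCRBV26-01, which placed them at rank 8 and rank 16 of the 24 V genes that had a mean of at least 10 unique rearrangements per library. In CD27loCX3CR1lo cells TCRBV26-01 made up 3.02%, 2.68% and 2.27% (experiments A, B and C), and in CD27hiCX3CR1lo cells 2.65%, 2.54% and 2.75%. In CX3CR1hi cells its share was 2.43%, 2.15% and 2.50%. In TILs it was 3.83%, 3.29% and 2.30%, so that the TIL libraries were spread widest and overlapped every splenic subset. TCRBV29-01 made up 6.27%, 5.77% and 5.94% in CD27loCX3CR1lo cells and 6.22%, 6.23% and 6.06% in CD27hiCX3CR1lo cells. Its share was 5.63%, 6.28% and 6.17% in CX3CR1hi cells and 5.00%, 5.94% and 6.35% in TILs. Each CX3CR1hi library was thus below each CD27hiCX3CR1lo library for TCRBV26-01, by little (2.50% against 2.54% at the nearest), while the other groups overlapped for both segments. Such a gap was not particular to TCRBV26-01, as TCRBV04-01 reached 4.17% in CX3CR1hi cells and at least 4.47% in CD27hiCX3CR1lo cells. TCRBV12-01 (8.20% against 8.32% at the nearest), TCRBV16-01 (6.61% against 6.76%), TCRBV14-01 (4.19% against 4.23%) and TCRBV20-01 (2.50% against 2.61%) had it too. TCRBV19-01 (at least 8.08% against at most 7.48%) and TCRBV05-01 (5.08% against 4.74%) lay apart the other way. This pair of groups was not tested.

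The share of unique rearrangements passed no test for either segment. CX3CR1hi cells differed from the mean of both CX3CR1lo subsets by −0.14 on the log2 scale (SE 0.10, edgeR adjusted p = 0.45) for TCRBV26-01 and by −0.0089 (SE 0.05, adjusted p = 0.99) for TCRBV29-01, while 4.17% of the 24 V genes were called. TILs differed from the CX3CR1lo subsets by 0.19 (adjusted p = 0.50) and −0.05 (edgeR adjusted p = 0.86), while 12.5% of the V genes were called (8.33% as higher). TILs against CX3CR1hi cells gave 0.34 for TCRBV26-01 (edgeR adjusted p = 0.40, 4.17% of V genes called). With 1 experiment left out this difference ranged from 0.19 to 0.63. The value without experiment C was 0.63 with an edgeR adjusted p of 0.034, in a fit that called 3 of the 24 V genes, 1 of them as higher. CD27loCX3CR1lo cells differed from CD27hiCX3CR1lo cells by −0.01 and −0.04, and no V gene was called by edgeR (2 had an unadjusted p under 0.05, and DESeq2 called 0).

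Among the V genes, the next above TCRBV26-01 in the order of mean shares was TCRBV15-01 (3.03%, higher in 10 of 12 libraries), and the next below was TCRBV17-01 (2.64%, higher than TCRBV26-01 in 7 of 12), so that TCRBV26-01 and TCRBV17-01 did not differ beyond their spread. TCRBV29-01 stood between TCRBV13-01 (6.32%, higher in 11 of 12 libraries) and TCRBV12-02 (5.44%, higher in 1 of 12). The segments whose log2 shares varied most like those of TCRBV26-01 over the 12 libraries were TCRBV20-01 and TCRBV15-01, with root mean square differences of 0.14 and 0.17 on the log2 scale after centering. For TCRBV29-01 these were TCRBV13-01 (0.07) and TCRBV04-01 (0.09).

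Next, the share of productive templates, which weighs each rearrangement by its clone size, was compared. Both segments took a smaller part of the CX3CR1hi templates than of the CX3CR1lo templates. TCRBV26-01 made up 3.23%, 2.82% and 2.16% of the templates in CD27loCX3CR1lo cells, 2.69%, 2.55% and 2.84% in CD27hiCX3CR1lo cells, and 1.63%, 1.17% and 1.22% in CX3CR1hi cells. TCRBV29-01 made up 6.09%, 5.91% and 5.77%, 6.27%, 6.06% and 6.12%, and 3.64%, 4.07% and 4.49% in the same order. Each of the 3 CX3CR1hi libraries was thus below each of the 6 CX3CR1lo libraries for both segments, which was also so for 41.7% of the 24 V genes. The difference was −1.04 on the log2 scale (SE 0.42) for TCRBV26-01 and −0.58 (SE 0.30) for TCRBV29-01, against a median of −0.38 over all 24 V genes (−0.12 with TMM scaling and −0.03 with DESeq2). Neither passed the edgeR test over all 12 libraries (adjusted p = 0.12 and 0.23), which called 0 of the 24 V genes, with 5 at an unadjusted p under 0.05, and DESeq2 called 4 V genes, neither member among them and each of the 4 as higher. The differences were −0.78 with TMM and −0.69 with DESeq2 for TCRBV26-01, and −0.32 and −0.24 for TCRBV29-01. When the TIL libraries, whose shares varied most, were left out of the fit, both differences passed (−1.03 and −0.57, edgeR adjusted p = 0.006 for each). That alternative was chosen after seeing the data, and it called 5 of the 24 V genes, 4 of them as lower. The exact permutation test of group labels within experiments gave two-sided p = 0.037 for both segments, the smallest that its 27 arrangements allow. These p-values are unadjusted, and the test was not run for the other V genes.

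In TILs TCRBV26-01 made up 2.92%, 1.32% and 0.558% of the templates in experiments A, B and C. TCRBV29-01 made up 2.83%, 6.01% and 4.92%. TCRBV26-01 was thus highest and TCRBV29-01 lowest in experiment A, and both ranges reached into those of the CX3CR1lo libraries, whereas 33.3% of the V genes had each TIL library below each CX3CR1lo library. TILs differed from the CX3CR1lo subsets by −0.95 (edgeR adjusted p = 0.11) for TCRBV26-01 and −0.43 (adjusted p = 0.29) for TCRBV29-01, where 16.7% of the V genes were called and the median of all V genes was −0.41. TILs differed from CX3CR1hi cells by 0.09 and 0.15, respectively, and 4.17% of the V genes were called.

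**Figure D1:**
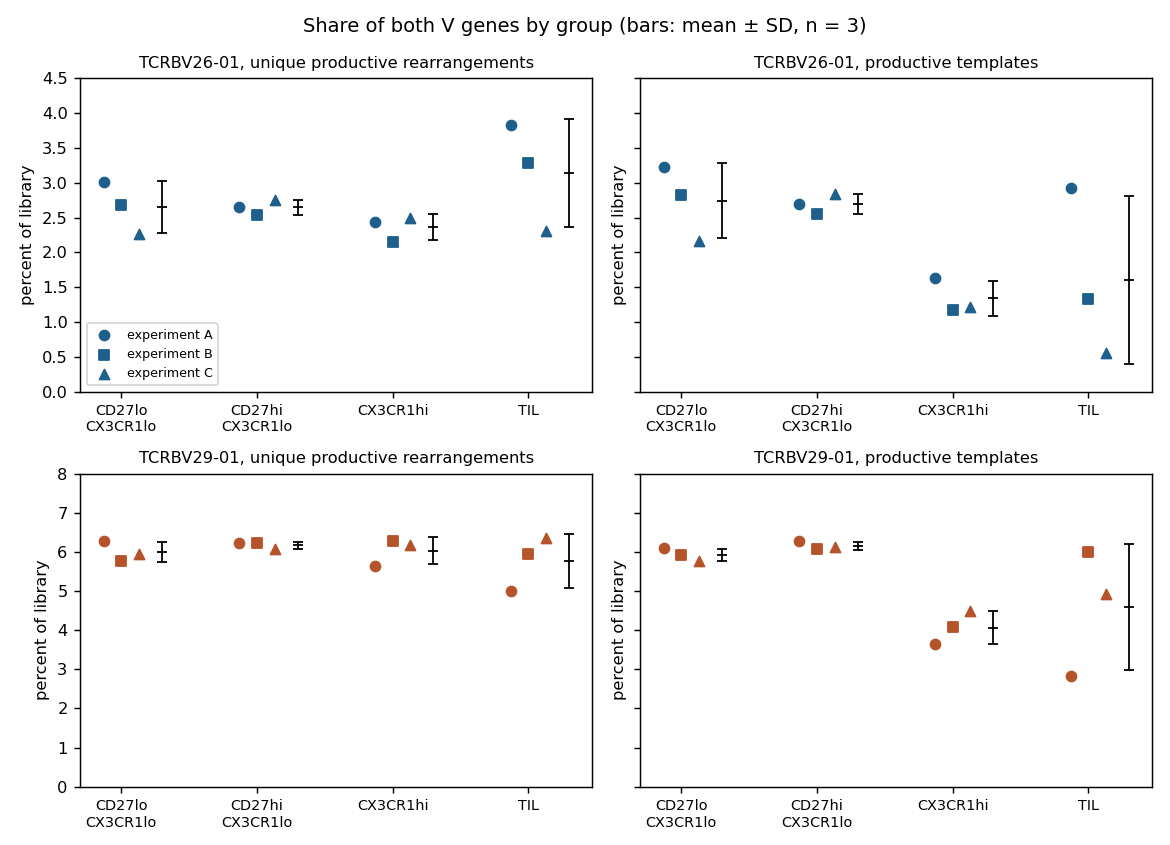
Percent of unique productive rearrangements (left) and of productive templates (right) that used TCRBV26-01 (top) or TCRBV29-01 (bottom) in each group, with 1 point per library, symbols for experiments, and black bars for mean ± SD (n = 3). On the left the groups overlap, except CX3CR1hi and CD27hiCX3CR1lo cells for TCRBV26-01 (2.50% against 2.54% at the nearest, not tested, a gap that other V genes also had). On the right the CX3CR1hi libraries (TCRBV26-01, 1.17% to 1.63%, TCRBV29-01, 3.64% to 4.49%) lie below all CX3CR1lo libraries, as for 41.7% of the 24 V genes.

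The ratio of the template share to the unique share, here the expansion ratio, tells whether the clones of a segment were larger than the average clone of the library. In the CX3CR1lo subsets the ratio was near 1 for both segments, with log2 values between −0.07 and 0.10. In CX3CR1hi cells its log2 was −0.58, −0.87 and −1.03 for TCRBV26-01 (experiments A, B and C) and −0.63, −0.62 and −0.46 for TCRBV29-01. In TILs it was −0.39, −1.31 and −2.04 for TCRBV26-01 and −0.82, 0.02 and −0.37 for TCRBV29-01. The CX3CR1hi value was below the CX3CR1lo value in 3 of 3 experiments, by −0.86 ± 0.19 (SD, n = 3) for TCRBV26-01 and −0.56 ± 0.10 for TCRBV29-01 (exact permutation p = 0.037 for each, the smallest possible). For TILs the difference was −1.28 ± 0.79 (exact permutation p = 0.037) and −0.38 ± 0.41 (exact permutation p = 0.074). Over the 16 exact tests made of expansion, frame ratio, CDR3 length and inserted bases, the lowest Benjamini-Hochberg adjusted p was 0.15, so that none passed after adjustment. Low ratios were not particular to these segments. In CX3CR1hi cells 17 of 24 V genes had a mean log2 ratio below 0, with a median of −0.44, and TCRBV26-01 was the 4th and TCRBV29-01 the 8th from the lowest. In TILs the median was −0.35, and they were 6th and 12th.

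**Figure D2:**
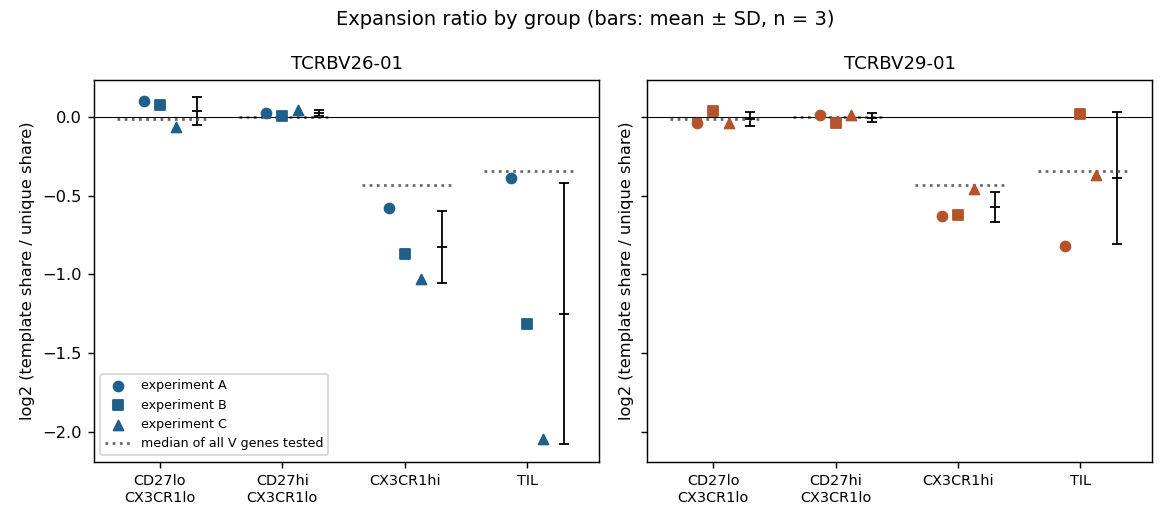
Log2 ratio of template share to unique share for TCRBV26-01 (left) and TCRBV29-01 (right) by group, with 1 point per library, black bars for mean ± SD (n = 3) and dotted lines for the median of all 24 V genes tested. Both segments leave 0 in CX3CR1hi cells, where the median of all V genes is −0.44, and the TIL libraries spread from −2.04 to −0.39 for TCRBV26-01.

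Productive rearrangements were then set against out-of-frame ones of the same library, to separate how often a segment was joined from how often its receptor was kept. The segments differed little among the out-of-frame rearrangements, where TCRBV26-01 made up 3.14% ± 0.418 (SD, n = 12, 2.07% to 3.68%) and TCRBV29-01 3.36% ± 0.310 (2.89% to 3.77%), at ranks 17 and 16 of 24. Among the productive rearrangements TCRBV29-01 rose to rank 8. Its productive share was 1.57 to 2.20 times its out-of-frame share, higher in 12 of 12 libraries, with a log2 difference of 0.80 (SE 0.03, edgeR adjusted p = 2.4e-17). This fit took the 12 libraries as independent, although each experiment gave 4 of them. For TCRBV26-01 the log2 difference was −0.31 (SE 0.05, edgeR adjusted p = 6.2e-06). Its ratio was below 1 in 10 of 12 libraries, and above 1 in the TILs of experiments A (1.85) and B (1.18), which held 13 and 19 out-of-frame TCRBV26-01 rearrangements. A departure in some direction was the rule, since 95.8% of the V genes were called, 41.7% of them all as higher and 54.2% as lower, with a median log2 difference of −0.19. Weighed by templates, the difference for TCRBV26-01 was −0.67 with an edgeR adjusted p of 0.080. Of the productive and out-of-frame rearrangements together, 81.3% ± 1.68 (SD, n = 12) were productive for TCRBV29-01 and 67.4% ± 5.94 for TCRBV26-01. Between groups, the log2 ratio of either segment passed no test (lowest exact permutation p = 0.15, for TCRBV26-01 in TILs against the CX3CR1lo subsets).

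**Figure D3:**
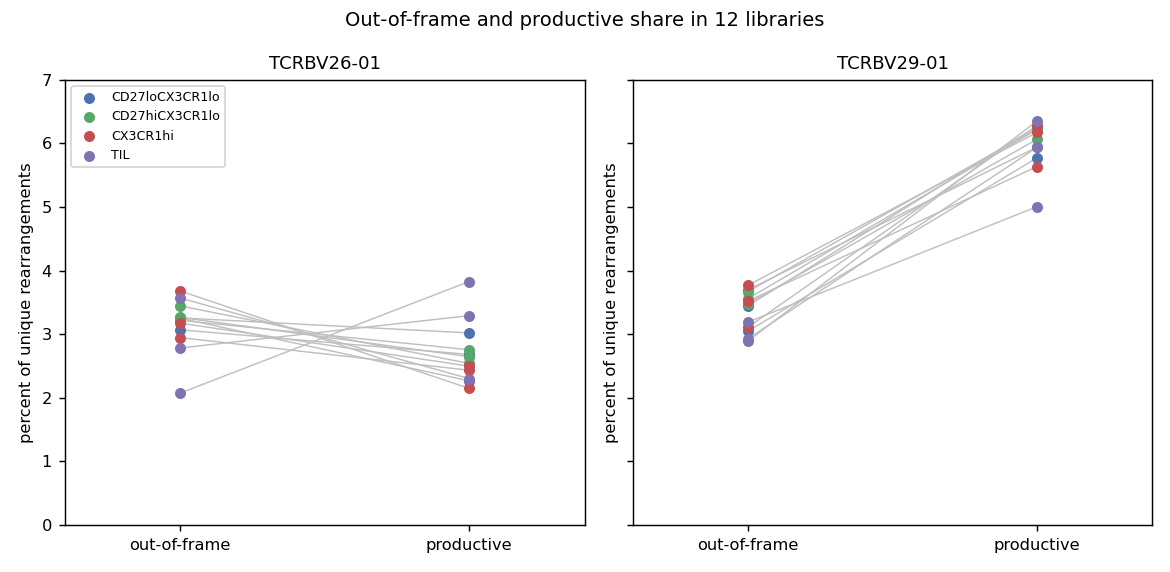
Share of unique out-of-frame (left of each panel) and productive (right) rearrangements that used TCRBV26-01 or TCRBV29-01, with 1 line per library colored by group. All 12 lines rise for TCRBV29-01, from 2.89% to 3.77% up to 5.00% to 6.35%, and 10 of 12 fall for TCRBV26-01.

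The J segments to which both V segments were joined were compared with those of the other V genes of the same library. Mouse J segments lie in the J1 and J2 clusters, each behind its own D segment. Both segments were joined to the TCRBJ01 cluster more often than other V genes, with 41.4% ± 5.21 (SD, n = 12) of the TCRBV26-01 rearrangements against 34.1% of the others, higher in 11 of 12 libraries, and 40.3% ± 2.35 of the TCRBV29-01 rearrangements against 33.9%, higher in 12 of 12. Of the out-of-frame rearrangements over all libraries, 39.6% of TCRBV26-01 used the TCRBJ01 cluster against 37.8% of other V genes (higher in 8 of 12 libraries), and 49.3% of TCRBV29-01 against 37.4% (11 of 12). The most frequent single partners were TCRBJ02-07 (20.2% of TCRBV26-01 and 17.5% of TCRBV29-01), TCRBJ02-01 (12.9% and 13.4%) and TCRBJ01-01 (10.7% and 10.6%). For each segment 8 of the 12 J segments tested differed from the other V genes (66.7% called), 4 of them higher (33.3%) and 4 lower (33.3%).

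TCRBJ01-02 showed the largest excess with both. It made up 9.84% ± 2.06 (SD, n = 12) of the TCRBV26-01 rearrangements against 6.53% of the others, a log2 difference of 0.60 (SE 0.06), and 10.4% ± 1.89 of the TCRBV29-01 rearrangements against 6.37%, a log2 difference of 0.55 (SE 0.05), both higher in 12 of 12 libraries. TCRBV26-01 was also joined more often to TCRBJ01-06 (0.45, SE 0.14, higher in 7 of 12 libraries) and TCRBJ01-03 (0.41, SE 0.08, 9 of 12). It was joined less often to TCRBJ02-03 (−0.54, SE 0.07), TCRBJ02-04 (−0.44, SE 0.08) and TCRBJ02-05 (−0.38, SE 0.06), each higher in 1 of 12 libraries. TCRBV29-01 was also joined more often to TCRBJ01-01 (0.25, SE 0.04) and TCRBJ01-04 (0.22, SE 0.05) and less often to TCRBJ02-07 (−0.28, SE 0.02), TCRBJ02-03 (−0.25, SE 0.05) and TCRBJ02-01 (−0.16, SE 0.04), all with edgeR adjusted p under the threshold of 0.05. For TCRBJ02-01 with TCRBV29-01 the fit, which weighs libraries by their counts, and the mean over libraries (13.4% against 13.1%, higher in 5 of 12) differed in sign, and the call was lost with DESeq2 (−0.06, adjusted p = 0.60).

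**Figure D4:**
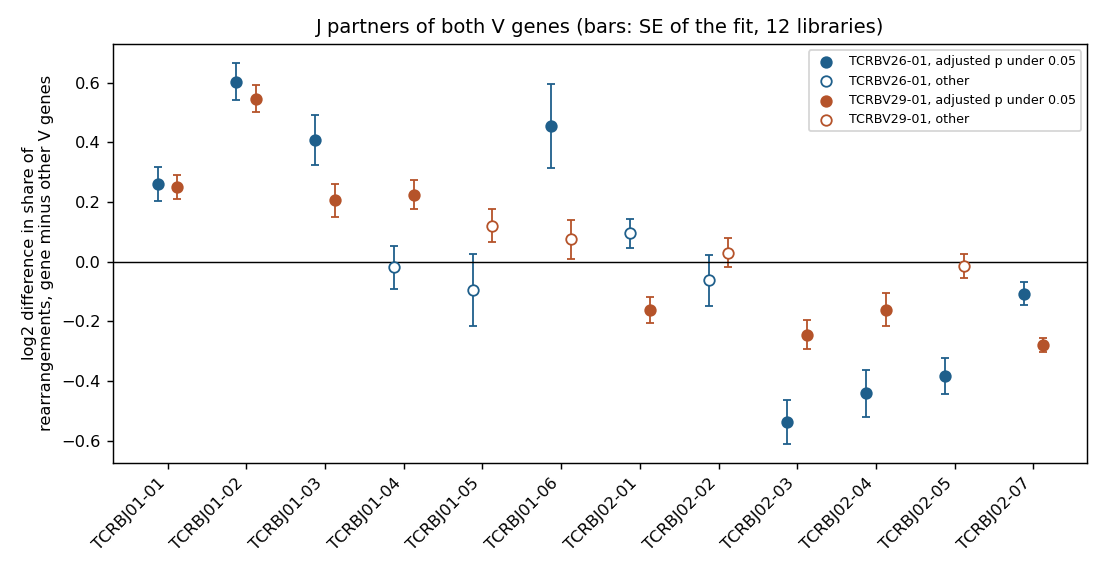
Log2 difference in the share of each J segment between the rearrangements of TCRBV26-01 or TCRBV29-01 and those of all other V genes of the same 12 libraries, with bars for the SE of the edgeR fit and filled points for adjusted p under 0.05. TCRBJ01-02 lies highest for both (0.60 and 0.55), and points of the TCRBJ02 cluster lie mostly below 0.

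The pairing of TCRBV29-01 with TCRBJ02-01 was the only V-J pair of the 2 segments whose share of unique productive rearrangements passed the test in CX3CR1hi cells or in TILs against the CX3CR1lo subsets, the contrasts fitted for pairs. It made up 0.647%, 0.651% and 0.536% in CD27loCX3CR1lo cells and 0.603%, 0.702% and 0.690% in CD27hiCX3CR1lo cells. In CX3CR1hi cells its share was 0.979%, 0.966% and 0.698%, and in TILs 0.662%, 1.16% and 1.29%. Thus 2 of the 3 libraries in each of the latter groups were above all CX3CR1lo libraries, and CX3CR1hi of experiment C and TILs of experiment A lay within their range. The difference from the CX3CR1lo subsets was 0.42 (SE 0.12, edgeR adjusted p = 0.037) for CX3CR1hi cells, where 1.58% of the 253 V-J pairs were called (1.19% as higher), and 0.76 (SE 0.22, edgeR adjusted p = 0.025) for TILs, where 2.77% were called (1.98% as higher). Neither call held in every fit without 1 experiment, as the CX3CR1hi difference was 0.32 (edgeR adjusted p = 0.48) without experiment A and 0.38 (adjusted p = 0.37) without B, and the TIL difference 0.76 (adjusted p = 0.30) without B and 0.51 (adjusted p = 0.55) without C. The TIL libraries held 9, 18 and 28 rearrangements of this pair. Out of frame, the pair made up 0.383%, 0.323% and 0.398% in CD27loCX3CR1lo cells, 0.305%, 0.263% and 0.441% in CX3CR1hi cells, and 0.478%, 0.146% and 0.386% in TILs, with 1 to 4 rearrangements per TIL library.

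Rearrangements of this pair with a CDR3 of 14 residues made up 31.9% ± 4.66 (SD, n = 3) in CD27loCX3CR1lo cells, 38.9% ± 1.21 in CD27hiCX3CR1lo cells, 43.0% ± 6.88 in CX3CR1hi cells and 57.4% ± 8.49 in TILs. With TCRBV26-01 and TCRBJ02-01 the values were 32.1%, 36.8%, 33.2% and 52.6% ± 24.4 in the same order, with 5 to 9 rearrangements per TIL library. The highest mean in TILs was thus not particular to TCRBV29-01. The largest clone of the TCRBV29-01 pair in TILs of experiment B, with 29 templates (0.234%), is shown with the bases from the cysteine codon onward in capitals.
TIL experiment B: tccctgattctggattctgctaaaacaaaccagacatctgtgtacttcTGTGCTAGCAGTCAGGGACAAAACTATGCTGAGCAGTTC
CDR3s with the same residues in every position but the fifth, a form chosen after its values were seen, made up 3 of 251 rearrangements of the TCRBV29-01 pair in CD27loCX3CR1lo cells, 17 of 901 in CD27hiCX3CR1lo cells, 13 of 204 in CX3CR1hi cells (6.37%) and 7 of 55 in TILs (12.7%), given here with no test. The TIL clone shown, from which the form was taken, is itself 1 of these 7, so the TIL count was raised by the choice. By library it was 1 of 9, 3 of 18 and 3 of 28 in TILs (experiments A, B and C). In CX3CR1hi cells it was 4 of 70, 5 of 54 and 4 of 80. The form was not counted for other V genes. A TCRBV26-01 rearrangement with TCRBJ02-01 in TILs of experiment C (1 template) also had it. The paper lists a CDR3 of this form among the dominant TIL clones of an experiment, with no V gene given. The form was thus not confined to TCRBV29-01.

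CDR3s of TCRBV29-01 were shorter than those of other V genes in 12 of 12 libraries, by 0.943 nucleotides ± 0.431 (SD, n = 12), with 1.29 ± 0.256 more V bases trimmed in 12 of 12. Those of TCRBV26-01 had 0.251 ± 0.173 fewer inserted bases than other V genes, fewer in 12 of 12. TCRBV29-01 CDR3s in TILs averaged 41.6 nucleotides ± 0.236 (SD, n = 3) against 40.6 ± 0.149 in CD27loCX3CR1lo, 40.7 ± 0.0389 in CD27hiCX3CR1lo and 40.9 ± 0.165 in CX3CR1hi cells. TILs were longer than the CX3CR1lo subsets by 0.914 ± 0.195, in 3 of 3 experiments (exact permutation p = 0.037, the smallest possible). With other J segments than TCRBJ02-01, the length was 41.6 ± 0.312 in TILs, 40.5 ± 0.13 in CD27loCX3CR1lo and 40.6 ± 0.0236 in CD27hiCX3CR1lo cells. Averaged over templates the difference was 0.475 (exact permutation p = 0.26). The mean CDR3 length of TCRBV26-01 and the number of inserted bases of both segments did not pass the exact test in either contrast over unique rearrangements.

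Expanded clones were defined as rearrangements with at least 0.1% of the productive templates of their library. In the 3 CX3CR1hi libraries, with 143, 126 and 144 expanded clones, 6 used TCRBV26-01 (1.45%, exact Clopper-Pearson 95% interval 0.535% to 3.14%, counting error only) and 22 used TCRBV29-01 (5.33%, 3.37% to 7.95%). In the 3 TIL libraries 5 of 374 used TCRBV26-01 (1.34%, 0.435% to 3.09%) and 14 used TCRBV29-01 (3.74%, 2.06% to 6.20%). By library, TCRBV26-01 had 3, 1 and 2 expanded clones in CX3CR1hi cells and 2, 3 and 0 in TILs, and TCRBV29-01 had 6, 7 and 9 in CX3CR1hi cells and 3, 5 and 6 in TILs. The mean shares of unique rearrangements, 2.36% and 6.03% in CX3CR1hi cells and 3.14% and 5.76% in TILs, lay above these values, a difference that was not tested. With expanded clones counted from 0.05%, TCRBV29-01 made up 6.11% of them in CX3CR1hi cells, above its share of unique rearrangements. Of the 17 and 1 expanded clones of the CD27loCX3CR1lo and CD27hiCX3CR1lo libraries, 0 used either segment.

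The largest TCRBV26-01 clones of the TIL libraries both in experiment A and in experiment C were joined to TCRBJ01-04, with CDR3s of the same length. They are shown with the bases from the cysteine codon onward in capitals, and the sequence ends 1 codon before the last CDR3 residue.
TIL experiment A: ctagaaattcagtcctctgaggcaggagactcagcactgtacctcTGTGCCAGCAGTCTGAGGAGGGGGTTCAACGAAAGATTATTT
TIL experiment C: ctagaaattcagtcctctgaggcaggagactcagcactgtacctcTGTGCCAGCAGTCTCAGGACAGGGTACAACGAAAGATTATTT
The clone of experiment A held 83 templates, 1.41% of the TIL library and 48.3% of its TCRBV26-01 templates, and 53 templates (0.0950%) in the CX3CR1hi library of the same experiment. That of experiment C held 11 templates (0.0525%) in TILs and 27 (0.0238%) in CX3CR1hi cells. Both were at 0 templates in the CX3CR1lo libraries of their experiment. In experiment B the largest was joined to TCRBJ01-05, with 47 templates (0.379%) in TILs and 36 in CX3CR1hi cells. The largest TCRBV26-01 clones of the CX3CR1hi libraries, joined to TCRBJ02-03 (0.377%), TCRBJ02-07 (0.269%) and TCRBJ01-04 (0.240%) in experiments A, B and C, held 0, 0 and 2 templates in TILs of their experiment. Those of TCRBV29-01, joined to TCRBJ02-07 (0.341%), TCRBJ02-04 (0.722%) and TCRBJ01-04 (0.377%), held 0, 0 and 7. The largest TCRBV29-01 clone in TILs of experiment A was joined to TCRBJ02-03, with 35 templates (0.594%) in TILs and 27 in CX3CR1hi cells.

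A single TCRBV29-01 CDR3 of 13 residues, joined to TCRBJ01-02 and carrying 2 arginines after Cys-Ala-Ser, led the segment in the TILs of experiments B and C. It held 511 templates (4.12%) in TILs of experiment B, where its main rearrangement ranked 2nd of all clones, and 390 (1.86%) in TILs of experiment C, where it ranked 6th. In TILs of experiment A it was at 0 of 5893 templates, which allows a share of up to 0.0509%. In CX3CR1hi cells it made up 0.0126%, 0.365% and 0.122% in experiments A, B and C. Its TIL share was 11.3 times the CX3CR1hi share in experiment B and 15.2 times in C. In CD27loCX3CR1lo cells it held 0, 7 and 9 templates and in CD27hiCX3CR1lo cells 6, 3 and 1. Without it, TCRBV29-01 made up 2.83%, 1.88% and 3.05% of the TIL templates. As this CDR3 was picked for leading the TILs of experiments B and C, leaving it out lowers their shares by construction, and no comparison is drawn.

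The CDR3 was encoded by 4 nucleotide sequences that differed in the 2 arginine codons, shown in capitals, and each was found in the libraries of 1 experiment only.
experiment A: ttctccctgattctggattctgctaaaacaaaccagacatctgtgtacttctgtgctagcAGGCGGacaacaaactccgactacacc
experiment B, main: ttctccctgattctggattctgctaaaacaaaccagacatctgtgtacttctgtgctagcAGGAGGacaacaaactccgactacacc
experiment B, minor: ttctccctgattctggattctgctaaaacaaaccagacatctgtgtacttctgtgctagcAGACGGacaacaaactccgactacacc
experiment C: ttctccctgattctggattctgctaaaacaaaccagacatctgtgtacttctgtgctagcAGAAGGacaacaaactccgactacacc
The first held 6 and 7 templates in CD27hiCX3CR1lo and CX3CR1hi cells of experiment A. The main sequence of experiment B held 690 templates in 4 libraries and the minor one 17 in CX3CR1hi cells and TILs, and that of experiment C held 539 templates in 4 libraries. Each had 6 V bases trimmed and 3 bases inserted. Counted within these sums are 4 further rows with 1 or 2 templates, which differed from the sequences shown before the CDR3. The same 13 residues also occurred once with TCRBV13-03 and once with TCRBV19-01, with 4 and 2 templates.

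**Figure D5:**
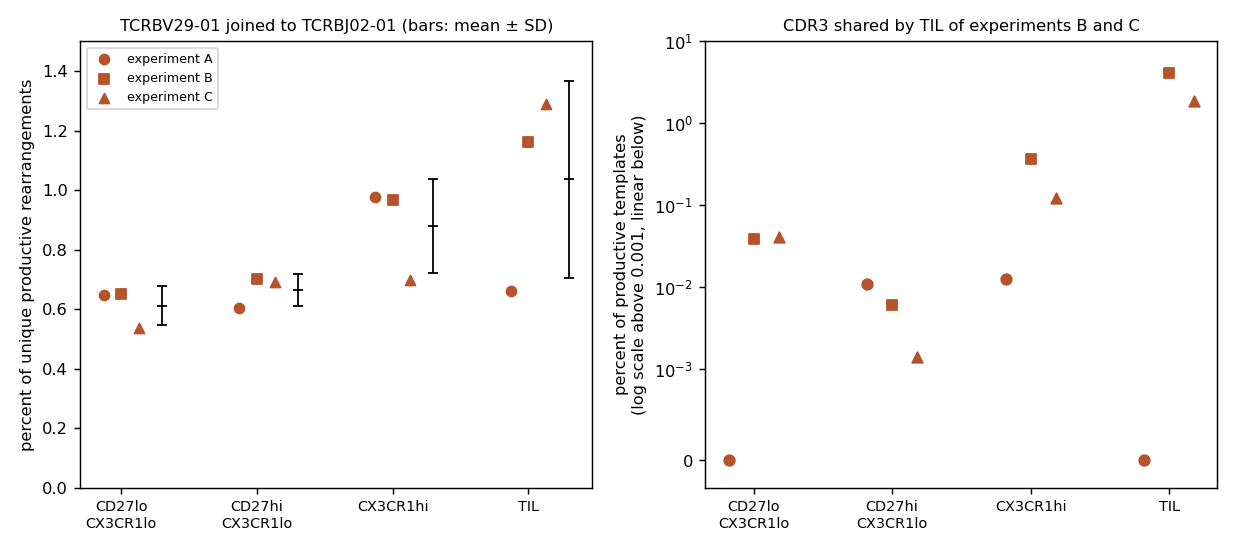
Left, percent of unique productive rearrangements that joined TCRBV29-01 to TCRBJ02-01, with 1 point per library and bars for mean ± SD (n = 3). Right, percent of productive templates with the TCRBV29-01 CDR3 that led TILs of experiments B and C (log scale above 0.001), which reached 4.12% and 1.86% there and stood at 0 in TILs of experiment A.

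With this sequence included, 7 of 1390 TCRBV29-01 CDR3s of the CX3CR1hi libraries were found in all 3, and 0 of 567 of TCRBV26-01. The 5 most abundant were the 2-arginine CDR3 and another 2 joined to TCRBJ01-02, and 2 of the 14-residue form joined to TCRBJ02-01. Each was present as 3 to 8 distinct rows of 87 bases, which also count differences before the CDR3. Of the 8 rows of the 2-arginine CDR3, 4 differed from the other forms only before the CDR3. In TILs 0 of 277 TCRBV29-01 CDR3s and 0 of 147 of TCRBV26-01 were found in all 3 libraries. The second most abundant, joined to TCRBJ01-02, held 39 templates (0.315%) in TILs of experiment B, 1 in those of C and 0 in those of A.

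Finally, TIL rearrangements were looked up in the CX3CR1hi library of the same experiment. Of the TCRBV29-01 TIL templates 56.3%, 88.6% and 88.3% (experiments A, B and C) belonged to rearrangements found there, and of the TCRBV26-01 templates 55.8%, 62.2% and 63.2%. For all other V genes the values were 64.4%, 85.7% and 85.8%. By unique rearrangements, 30.9%, 43.5% and 48.6% of TCRBV29-01 and 17.3%, 23.5% and 44.0% of TCRBV26-01 were found, against 19.9%, 38.2% and 46.3% of the other V genes. Thus TCRBV29-01 was above the other V genes by this measure in 3 of 3 experiments and TCRBV26-01 below them in 3 of 3, a difference that was not tested. In CD27loCX3CR1lo cells of the same experiment, 6.59%, 73.7% and 64.0% of the TCRBV29-01 TIL templates were found, and 0.581%, 39.0% and 7.69% of TCRBV26-01. In CD27hiCX3CR1lo cells the values were 5.99%, 73.3% and 59.7%, and 0.581%, 49.4% and 7.69%. Other V genes gave 39.6%, 50.2% and 61.1% in CD27loCX3CR1lo and 29.5%, 54.2% and 51.2% in CD27hiCX3CR1lo cells.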

How the data were processed

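TCRβ CDR3 regions were sequenced from genomic DNA of 12 libraries with the ImmunoSEQ assay (Adaptive Biotechnologies, survey level). The authors deposited 1 table per library, whose rows are rearrangements with their V, D and J names, frame (in, out or stop), nucleotide sequence of 87 bases, CDR3 length, inserted bases and a count, the estimated number of template genomes. These deposited counts were not normalized. The submitters' processing notes name mm10, and the caller's version is not given in the sources used here. No V gene was resolved for 22 rearrangements, which stayed in the totals. The members, gene lists and tests were chosen with earlier results of these data known.

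Groups came from the sample labels, which give each library an experiment code shared by 4 libraries. Counts of unique productive rearrangements or templates per V gene were fitted with edgeR 4.0.16 (quasi-likelihood test, library totals as offsets, experiment as a block, R 4.3.3) over the 24 of 35 V names with a mean of at least 10 unique rearrangements per library, and V-J pairs over the 253 with a mean of at least 5. Productive against out-of-frame rearrangements, and J segments of a V gene against those of other V genes, were fitted with the library as a block. Both kinds of fit took the 12 libraries as independent, although each experiment gave 4 of them. The p-values were adjusted by the Benjamini-Hochberg method over all features of a fit, with a threshold of 0.05. Single values per library were compared by a two-sided exact permutation test of group labels within experiments (27 arrangements, smallest p = 0.037). Of the V genes and clones, those named were the neighbours in the order of shares, the 2 most alike, the largest clone of each CX3CR1hi and TIL library, and the 5 most abundant CDR3s found in all 3 libraries of a group. J segments named were the 3 most used and up to 6 that passed. Same-experiment libraries did not deviate together in every pair over 18 pairs (r from −0.57 to 0.62 for unique shares, mean 0.020, against −0.013 between experiments, and from −0.37 to 0.53 for template shares, mean 0.21, against −0.11). Alternatives were TMM scaling, DESeq2 1.42.0, other filters, equal depth, clone weights, no block and leaving out each experiment. Scripts were tested on simulated data. Tables were read with Python 3.11.15 and pandas 2.3.3, and exact tests and intervals used scipy 1.17.1.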

Additional observations from a re-analysis of the deposited data

How the results depend on the processing

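Of the values that answer a comparison, 272 alternative values kept direction and side of the threshold, 30 reversed, 10 passed where the reported one did not, 6 no longer passed and 2 moved; the cause was not tested. Exact permutation tests were judged here by their unadjusted p, while none of the 16 passed after adjustment. All reversed values were differences that had not passed. Log2 differences in the share of unique rearrangements reversed for TCRBV29-01 in CX3CR1hi against CX3CR1lo cells with TMM scaling (0.022), equal depth (0.0014), a minimum of 2 templates (0.042), CDR3 amino acid clonotypes (0.016) and experiments left out (−0.049 to 0.051), and in TILs against CX3CR1lo cells with experiments left out (−0.15 to 0.043). For TCRBV26-01 between the CX3CR1lo subsets it became 0.020 at equal depth, 0.031 with a minimum of 2 templates and −0.12 to 0.14 with experiments left out, and in TILs against CX3CR1hi cells it was 0.19 to 0.63. For template shares, TCRBV26-01 in CX3CR1hi against CX3CR1lo cells passed without the TILs (−1.03, an alternative chosen after seeing the data), without the largest clone of each V gene (−0.92) and by exact permutation (−1.02), and TCRBV29-01 without the TILs (−0.57) and by exact permutation (−0.57). Without the largest clone, TCRBV29-01 passed in TILs against CX3CR1lo cells (−0.61), in a fit that called 8 of the 24 V genes, 6 of them as lower. In TILs against CX3CR1hi cells TCRBV29-01 reversed without the largest clone (−0.32, and −0.084 to 0.35 with experiments left out). TCRBV26-01 reversed between the CX3CR1lo subsets without the replicate block (0.024), without the TILs (0.0054) and with experiments left out (−0.14 to 0.20), and in TILs against CX3CR1hi cells with a minimum of 2 templates (−0.0038) and experiments left out (−0.43 to 0.54).

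Weighed by templates, the productive against out-of-frame difference of TCRBV26-01 was −0.67 and no longer passed. That ratio of TCRBV29-01 in CX3CR1hi against CX3CR1lo cells became 0.11 at equal depth (−0.093 to 0.070 with experiments left out), and in TILs it was −0.0036 to 0.28. Among J segments, TCRBJ01-04 with TCRBV26-01 became 0.039 with TMM and 0.085 with DESeq2 (−0.071 to 0.047 with experiments left out), TCRBJ02-02 with TCRBV26-01 became 0.00019 with DESeq2 (−0.16 to 0.012), and TCRBJ02-02 with TCRBV29-01 was −0.031 to 0.089. The TCRBV29-01 and TCRBJ02-01 pair kept its direction with experiments left out (0.32 to 0.59 in CX3CR1hi cells and 0.51 to 0.95 in TILs). Averaged over templates, TCRBV26-01 CDR3s were longer in TILs by 1.26 nucleotides (unadjusted exact permutation p = 0.037, the smallest possible; −0.372 to 0.543 over unique rearrangements with experiments left out), its inserted bases differed by 0.0828 in CX3CR1hi cells (−0.135 to 0.0843) and 0.398 in TILs (−0.219 to 0.0134), TCRBV29-01 CDR3s by −0.224 in CX3CR1hi cells and 0.475 in TILs, and its inserted bases by −0.268 (−0.028 to 0.10) and −0.360 (unadjusted exact permutation p = 0.037). Without the replicate block, the TCRBV29-01 CDR3 length in CX3CR1hi cells differed by 0.278 (unadjusted exact permutation p = 0.024). Outside the J segments, no call for either segment changed beyond those given here and in the results. J segments that passed numbered 6 to 9 of 12 for TCRBV26-01 and 6 to 8 for TCRBV29-01 with experiments left out, against 8 for each as reported. With expanded clones counted from 0.5%, 0 of 85 in CX3CR1hi cells used TCRBV26-01 and 1.18% TCRBV29-01, against 1.05% and 4.21% in TILs, and from 0.05% the values were 1.95% and 6.11% in CX3CR1hi cells and 1.98% and 5.04% in TILs.

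V genes called for templates in CX3CR1hi against CX3CR1lo cells numbered 0 as reported, 2 with TMM and 4 with DESeq2, each of them higher, and 5 without the TILs or without the largest clones, 4 of them lower, and for productive against out-of-frame rearrangements 23 as reported and 11 by templates. Leaving out an experiment leaves 9 arrangements, which cannot pass an exact test. The TIL libraries held 50 to 52 unique TCRBV26-01 rearrangements, so small differences were not detectable at this depth.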
